A study of Mus musculus with 13 samples.

Results

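Voltage-gated sodium and calcium channel genes were followed in hippocampal RNA-Seq from 13 mice. The genes were taken by symbol from the deposited table: the sodium channel alpha subunits (Scn1a to Scn11a), the sodium channel beta subunits (Scn followed by a number and b), the calcium channel alpha1 subunits (Cacna1a to Cacna1s), the alpha2delta subunits (Cacna2d1 to Cacna2d4) and the calcium channel beta subunits (Cacnb1 to Cacnb4). This gave 32 of 45777 genes, 14 of sodium channels (10 alpha, 4 beta) and 18 of calcium channels (10 alpha1, 4 alpha2delta, 4 beta). Whole hippocampi were taken at day 3 after a saline injection (sham) or after status epilepticus (SE) induced by pilocarpine, a muscarinic agonist given at 260 mg/kg to males and 280 mg/kg to females. LIN28A WT mice were Nestin-Cre::Lin28a+/+ and LIN28A-cKO mice were Nestin-Cre::Lin28aloxP/loxP, so every mouse carried the Nestin-Cre transgene, which deletes loxP-flanked DNA in neural progenitors and all their descendants, also outside the hippocampus. The methods of the study give an age of 6 weeks at injection, both sexes, and scopolamine methyl nitrate and terbutaline before and diazepam after pilocarpine. Each library came from 1 mouse, with 4 mice in the sham-cKO group and 3 in each of sham-WT, SE-cKO and SE-WT.

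Voltage-gated sodium channels open on depolarisation and carry the upstroke of the action potential. Their large alpha subunit forms the pore, and small beta subunits with a single membrane span set its gating and its placement at the membrane. Voltage-gated calcium channels turn depolarisation into calcium entry: Cav1 (L-type) channels feed signalling to the nucleus, Cav2 (P/Q-, N- and R-type) channels trigger transmitter release, and Cav3 (T-type) channels open near rest and support burst firing. The alpha2delta and beta subunits bring the calcium channel pore to the membrane. Many antiseizure drugs act on these proteins, and mutations of several of their genes cause epilepsy.

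Read counts per library totalled 59659977 to 84354243, and pairs of replicates gave a chi-square of 51.3 to 468 per gene where sampling noise alone gives about 1, so the spread between mice sets the precision. For Lin28a, the targeted gene, 12 libraries had a count of 0 and the third SE-WT library had 3, so the deletion could not be checked. The limit that a count of 0 allows, taken as 3 counts, is 0.0364 to 0.0506 CPM (read counts scaled to library size), which covers counting error only. Genes of hippocampal neurons were detected in all 13 libraries. Summed CPM was 302 to 765 over 10 dentate granule cell genes and 512 to 1374 over 12 CA pyramidal genes. Several libraries held more RNA of neighbouring tissue. Over 12 choroid plexus genes, summed CPM was 4627 in sham-WT replicate 3 and 2810 in sham-cKO replicate 3. It was 1511 in sham-WT replicate 2, 1276 in SE-cKO replicate 1 and 27.45 to 689.9 in the other libraries. The part of choroid plexus RNA in the channel values was not tested. Below, libraries of mixed region are only those high in the striatal or thalamic genes given next. In SE-WT replicate 2, 14 striatal genes summed to 2211 CPM against at most 178 in sham, and in sham-cKO replicate 2 and SE-WT replicate 3, 14 thalamic genes summed to 2733 and 1633 CPM against at most 334 in SE-cKO. Sex is not labelled, and the female-specific transcript Xist was above 100 CPM in 2 of 3 sham-WT, 1 of 4 sham-cKO, 2 of 3 SE-cKO and 1 of 3 SE-WT mice.

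In sham hippocampus, 23 of the 32 genes were at a mean of 1 TPM (a scale that divides by transcript length and so allows genes to be compared) or more. Of the genes reported here, Scn2a, which encodes Nav1.2 of excitatory axons, was the highest at 102 ± 19.7 TPM (SD, n = 7 sham mice). The order after it was Scn2b at 63.6 ± 8.01, Scn3b at 63.3 ± 11.7, Cacna2d1 at 53.6 ± 11.9, Cacna2d3 at 49.8 ± 11.5, Cacna1e at 45.4 ± 15.5, Scn8a at 40.1 ± 8.27, Scn1a at 39.8 ± 10.9, Cacnb4 at 38.6 ± 10.5 and Cacnb3 at 37.1 ± 5.26 TPM, and neighbours in this run overlapped in their ranges. Cacnb1, Cacnb2, Cacna1b, Scn3a, Cacna1a, Cacna1c and Cacna1h lay between 10.5 and 19.3 TPM, and Cacna1g, Cacna1i, Cacna1d, Scn4b and Cacna2d2 between 4.82 and 9.39 TPM. The subunits known from other tissues were low: Scn7a (a sodium-sensing channel), Scn9a (Nav1.7 of peripheral neurons), Cacna2d4 (retina) and Cacna1s (skeletal muscle) averaged 0.153 to 0.902 TPM, and Scn11a, Scn10a (both of pain-sensing neurons), Scn4a (skeletal muscle) and Cacna1f (retina) at most 0.00867 TPM.

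**Figure D1:**
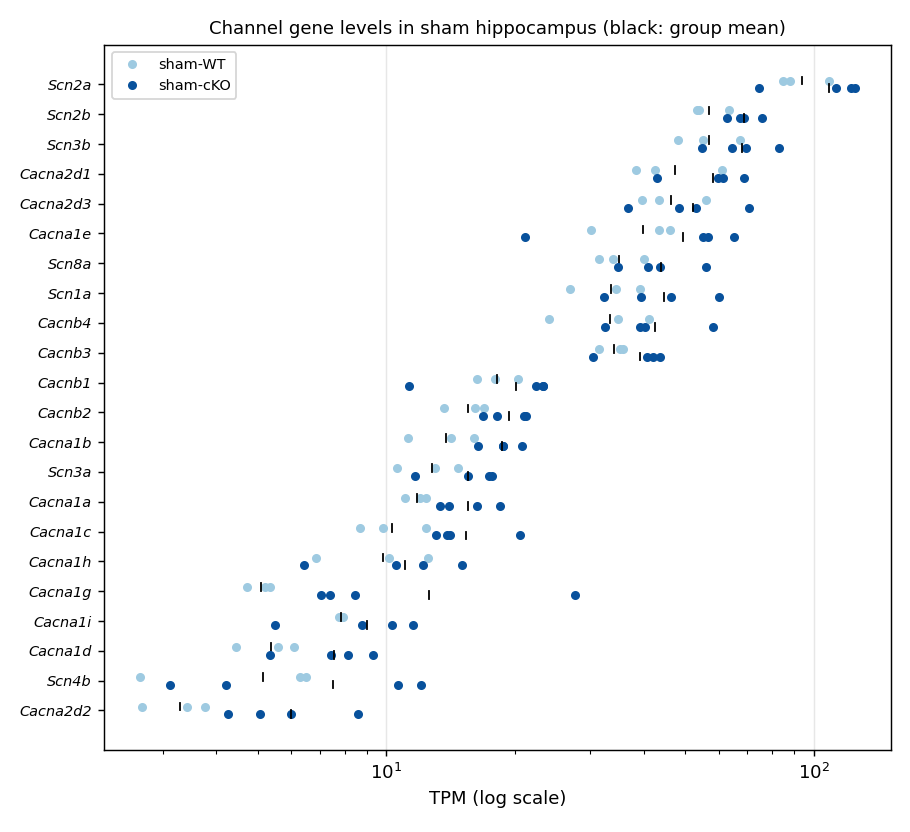
TPM on a log axis of 22 of the 23 channel genes at a sham mean of 1 or more, with a point for each of the 3 sham-WT (light) and 4 sham-cKO (dark) libraries and a black line at each group mean. Scn2a stands at the top at a mean of 102 TPM, and the single Cacna1g point to the far right is sham-cKO replicate 2.

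Between the genotypes under saline, edgeR called none of the 28 channel genes tested (0.0% of all 20785 genes were called in either direction). An unadjusted p under 0.05 was found for 2 of the 28 (7.14%), Cacna1b and Cacna2d2, near the 5.54% of all genes, and DESeq2 also called none. Ranges were higher in sham-cKO without overlap for 3 of the 28, Cacna1b, Cacna2d2 and Cacna1g, against 3.88% of all genes. The median log2 fold change of sham-cKO against sham-WT was 0.18, beside 0.01 over all genes, and 24 of the 28 lay above 0. Cacna1b, the N-type pore Cav2.2, was at 96.8, 100.5 and 121 CPM in sham-WT and at 124, 124, 129 and 136 CPM in sham-cKO, groups that did not overlap (log2 fold change 0.28, standard error 0.09, adjusted p = 0.868).

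At day 3 after SE in WT mice, a single channel gene passed the test. Scn3b, which encodes a beta subunit strongly expressed in hippocampal neurons, was at 176, 201 and 185 CPM in sham-WT and at 75.7, 97.3 and 96.8 CPM in SE-WT. All 3 SE-WT libraries lay below all 3 sham-WT libraries, a fall of 52.8% (log2 fold change -1.08, standard error 0.14, edgeR adjusted p = 0.00726). Thus 1 of 28 channel genes tested fell and none rose, where 0.832% of all 20803 genes fell and 4.57% rose. Without sham-WT replicate 2 the log2 fold change was -1.02 and the adjusted p 0.0563. In bulk RNA, here and below, fewer cells of a type and less RNA per cell cannot be told apart. The median log2 fold change over the 28 genes was -0.01, beside 0.02 over all genes, with 13 values above 0 and 15 below.

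Other channel genes in WT spread widely between mice. Scn2a was at 693, 706 and 611 CPM in sham-WT and 594, 392 and 376 CPM in SE-WT, without overlap (log2 fold change -0.59, adjusted p = 0.148). Scn8a, the Nav1.6 pore of the axon initial segment, was at 316, 332 and 311 CPM in sham-WT and at 296, 211 and 274 CPM in SE-WT, again without overlap (log2 fold change -0.32, adjusted p = 0.271). With Scn3b, these made 3 of 28 genes whose ranges were lower without overlap, against 11.9% of all genes. The widest values belonged to libraries with striatal or thalamic RNA. Scn4b, a beta subunit abundant in striatal neurons, was at 15.8, 363 and 39.2 CPM in SE-WT against 26.6, 22.6 and 10.3 CPM in sham-WT. Its log2 fold change was 2.80 (adjusted p = 0.21), and 0.44 without SE-WT replicate 2. In the same library Scn9a at 18.0 CPM, Cacna2d2 at 58.3 CPM and Cacna2d3 at 227 CPM were the highest of the 13. Without it, the log2 fold change went from 0.88 to -0.21 for Scn9a, from 1.25 to 0.70 for Cacna2d2 and from -0.02 to -0.58 for Cacna2d3, none of them called. DESeq2 called Cacna2d2 higher on all 6 libraries (adjusted p = 0.0308). Cacna1g, the T-type pore Cav3.1 of thalamic relay neurons, was at 176 CPM in sham-cKO replicate 2 and 139 CPM in SE-WT replicate 3, the libraries with thalamic RNA, and at 30.0 to 63.6 CPM in the other 11. Its log2 fold change in WT was 1.16 (adjusted p = 0.234). It was 0.41 without SE-WT replicate 3, and 1.55 and called higher (adjusted p = 0.0409) without SE-WT replicate 2.

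In cKO mice, channel genes of every subfamily fell after SE. Of 29 channel genes tested between SE-cKO and sham-cKO, 16 fell (55.2%) and none rose, where 8.92% of all 21307 genes fell and 13.8% rose. The falls covered 4 of 8 sodium channel alpha genes, 3 of 4 sodium channel beta genes, 4 of 9 calcium channel alpha1 genes tested, 2 of 4 alpha2delta genes and 3 of 4 calcium channel beta genes. The median log2 fold change was -0.67 over the 29 genes, beside -0.001 over all genes, and it was -0.96 for sodium channel genes and -0.61 for calcium channel genes. Among the 23 genes at a mean of 1 TPM or more over all libraries, all 23 had a log2 fold change below 0, from -1.79 to -0.10, and 15 of them fell. Ranges of 16 of the 29 genes were lower in SE-cKO without overlap, against 14.4% of all genes. Scn10a, Scn11a and Cacna1f did not pass the count filter, and Scn4a passed it only through the SE-cKO libraries.

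With the 3 libraries of mixed region (sham-cKO replicate 2 and SE-WT replicates 2 and 3) left out of a fit of the 4 groups, 17 genes fell and 1 rose. That fit leaves SE-WT, which this comparison does not use, with replicate 1 alone. The number of falls was 15, with 2 rises, without sham-cKO replicate 2 alone. It was 10 without SE-cKO replicate 1 or without SE-cKO replicate 2. Falls over all genes moved from 1901 in the main fit to 1875 without sham-cKO replicate 2. They numbered 1757 without SE-cKO replicate 1 and 1280 without SE-cKO replicate 2. All 16 genes had a log2 fold change below 0 under each of 17 alternatives, and 8 were called under all of them: Scn1a, Scn2a, Scn8a, Scn2b, Scn3b, Cacna1b, Cacna2d3 and Cacnb3. Cacnb4 was called under 16 of the 17, Cacna1c and Cacnb2 under 14 each, and Cacna1i and Cacna2d1 under 12 each. Cacna1e was called under 10, Scn9a under 5 and Scn4b under 4.

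**Figure D2:**
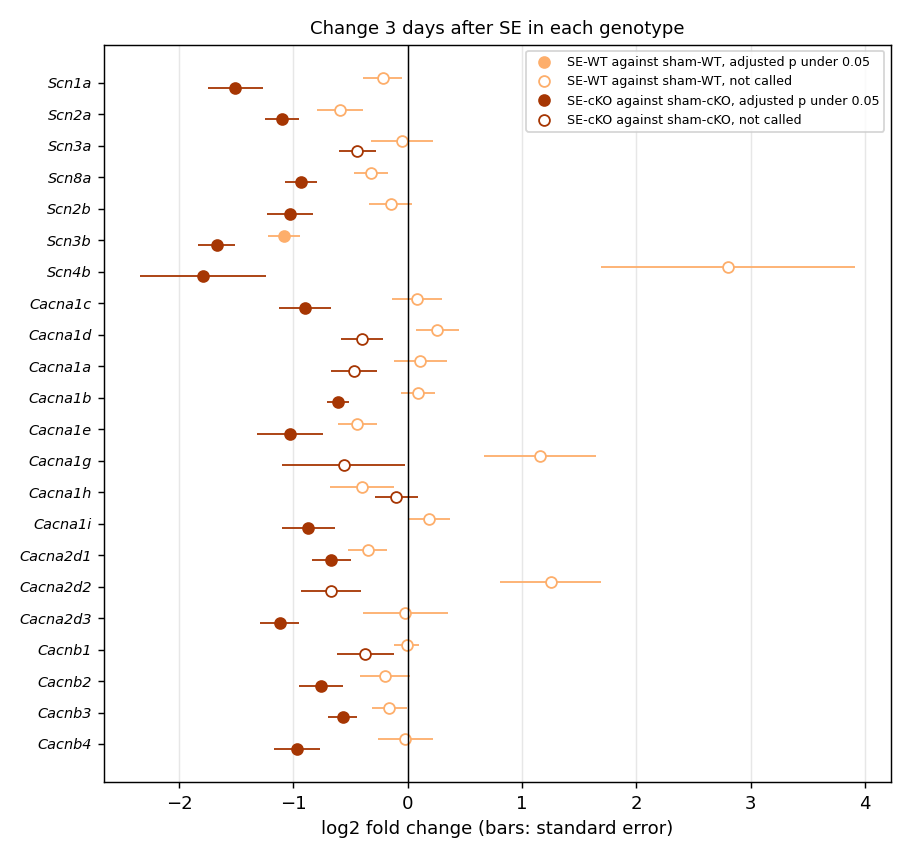
Log2 fold change (x axis) with its standard error (bars) of 22 of the 23 channel genes at 1 TPM or more, for SE-WT against sham-WT (light) and SE-cKO against sham-cKO (dark), with filled points for an adjusted p under 0.05. Only Scn3b is filled in WT, and the 15 filled cKO points lie between -1.79 and -0.57.

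The proximal promoters of the genes that fell ranged from CG-poor to CG-rich. RefSeq windows (GRCm38.p6) of 250 bases before to 50 after a transcript start were at hand for 24 of the 32 genes, and for 15 of the 16 that fell in SE-cKO. Counting the CG dinucleotides in the richest window of each gene, these 15 ranged from 2 to 57 around a median of 29, and the median over all 32851 windows, each counted on its own rather than as a gene's richest, was 7. Shown are a pair of CG-poor and a pair of CG-rich windows of genes that fell, read 5′ to 3′ on the gene's strand with each CG in capitals. They are Scn1a (chr2:66440788-66441087, minus strand, 5 CG), Scn2b (chr9:45117626-45117925, plus strand, 2 CG), Scn8a (chr15:100870395-100870694, plus strand, 38 CG) and Cacna2d3 (chr14:29721815-29722114, minus strand, 41 CG).
Scn1a: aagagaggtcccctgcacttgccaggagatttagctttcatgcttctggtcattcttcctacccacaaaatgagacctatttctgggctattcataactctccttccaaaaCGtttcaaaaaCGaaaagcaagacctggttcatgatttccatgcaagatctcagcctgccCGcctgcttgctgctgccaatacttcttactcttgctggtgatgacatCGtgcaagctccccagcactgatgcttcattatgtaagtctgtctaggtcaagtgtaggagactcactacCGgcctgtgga
Scn2b: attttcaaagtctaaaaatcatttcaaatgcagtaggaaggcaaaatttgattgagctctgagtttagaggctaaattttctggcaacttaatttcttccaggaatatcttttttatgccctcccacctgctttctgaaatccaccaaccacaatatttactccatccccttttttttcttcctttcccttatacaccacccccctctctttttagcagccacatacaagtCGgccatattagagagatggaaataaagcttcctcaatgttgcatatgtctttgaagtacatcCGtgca
Scn8a: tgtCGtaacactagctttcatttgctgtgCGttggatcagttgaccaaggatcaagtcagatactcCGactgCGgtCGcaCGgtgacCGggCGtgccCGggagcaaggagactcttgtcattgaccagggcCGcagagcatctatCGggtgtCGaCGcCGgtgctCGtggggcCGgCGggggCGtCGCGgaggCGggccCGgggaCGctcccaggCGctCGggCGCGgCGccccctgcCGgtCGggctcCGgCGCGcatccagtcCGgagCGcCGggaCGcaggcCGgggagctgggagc
Cacna2d3: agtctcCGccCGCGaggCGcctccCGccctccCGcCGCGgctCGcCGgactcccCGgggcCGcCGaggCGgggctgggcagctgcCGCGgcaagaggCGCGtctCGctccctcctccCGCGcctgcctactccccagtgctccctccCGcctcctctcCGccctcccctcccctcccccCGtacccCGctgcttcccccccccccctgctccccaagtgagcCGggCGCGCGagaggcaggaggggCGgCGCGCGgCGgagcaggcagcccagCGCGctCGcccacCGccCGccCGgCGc
The motifs below were searched on both strands of the 34 windows of channel genes. TTCAGCACC, the left part of the RE1 element bound by the repressor REST, was in 0 of them and in 0.371% of all windows, and GGACAGCG, within its right part, was in 1 window, of Cacnb1, and in 1.26% of all. TGACGTCA, the cAMP response element, was in 0 of the 34 and in 1.79% of all windows. These letters were sought in the windows only, and introns and distant elements were not searched.

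Of the 4 alpha subunits of the central nervous system, Scn1a had the largest fall in cKO by log2 fold change. It encodes Nav1.1, the main sodium channel of fast-spiking interneurons. It lies on chromosome 2 from 66270781 to 66440837 (GRCm38), in a cluster with Scn3a, Scn2a, Scn9a and Scn7a that spans 65457118 to 66784910. Scn1a was at 228, 394, 192 and 261 CPM in sham-cKO and at 105, 88.7 and 95.3 CPM in SE-cKO. Every SE-cKO library was below every sham library of either genotype, a fall of 64.8% (log2 fold change -1.51, standard error 0.24, adjusted p = 0.00269). The highest sham value came from the library with thalamic RNA, without which the log2 fold change was -1.29. Scn2a (chromosome 2, 65620764 to 65767447) was at 748, 521, 710 and 751 CPM in sham-cKO and at 330.1, 337 and 302 CPM in SE-cKO. It fell by 53.5% (log2 fold change -1.10, standard error 0.15, adjusted p = 0.00124). Scn8a (chromosome 15, 100869863 to 101045938) was at 342, 312, 326 and 433 CPM in sham-cKO and at 170.4, 194 and 202 CPM in SE-cKO, a fall of 47.6% (log2 fold change -0.93, standard error 0.14, adjusted p = 0.00216). All 3 genes thus had no overlap between the groups.

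Scn3a, which encodes Nav1.3, the alpha subunit most abundant before birth, did not pass the test. It was at 124, 97.2, 114 and 124 CPM in sham-cKO and at 70.4, 106 and 82.5 CPM in SE-cKO, and the groups overlapped (log2 fold change -0.44, standard error 0.16, adjusted p = 0.0849). It was called lower under 3 alternatives, at -0.52 (adjusted p = 0.0266) with the 3 libraries of mixed region left out, at -0.53 with Xist as a covariate and at -0.61 without SE-cKO replicate 2. Scn9a, low in all libraries, was at 5.56, 6.19, 7.51 and 3.56 CPM in sham-cKO and at 3.06, 3.20 and 2.50 CPM in SE-cKO (log2 fold change -0.99, standard error 0.28, adjusted p = 0.0359). Scn7a had a log2 fold change of -0.40 (adjusted p = 0.523). Scn4a had 0, 9, 0 and 0 read counts in sham-cKO and 18, 10 and 15 in SE-cKO, with 0 to 11 in the 6 WT libraries (adjusted p = 0.292). Scn11a had 91 counts in the second and 19 in the first SE-WT library, 21 in the first SE-cKO library and at most 14 elsewhere, and Scn10a had 18 in sham-WT replicate 3 and at most 5 elsewhere.

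Among the beta subunits Scn3b (chromosome 9, 40269216 to 40291618) again had the smallest adjusted p. It was at 196, 178, 187 and 231 CPM in sham-cKO and at 55.0, 77.3 and 58.0 CPM in SE-cKO, a fall of 68.6% (log2 fold change -1.67, standard error 0.16, adjusted p = 1.98e-04). It is the channel gene that fell after SE in both genotypes. Scn2b, a covalently linked partner of alpha subunits (chromosome 9, 45117876 to 45130070), was at 216, 271, 202 and 207 CPM in sham-cKO and at 146, 84.8 and 105 CPM in SE-cKO. The groups did not overlap, and the fall was 50.9% (log2 fold change -1.03, standard error 0.20, adjusted p = 0.00736). Scn4b, whose gene follows Scn2b on chromosome 9 (45138624 to 45154155), was at 13.8, 45.1, 10.5 and 34.2 CPM in sham-cKO and at 10.1, 4.18 and 8.60 CPM in SE-cKO. Its log2 fold change was -1.79 (standard error 0.55, adjusted p = 0.0473), and the call was lost without any of 5 single libraries (sham-cKO replicates 2 and 4 and each SE-cKO replicate).

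**Figure D3:**
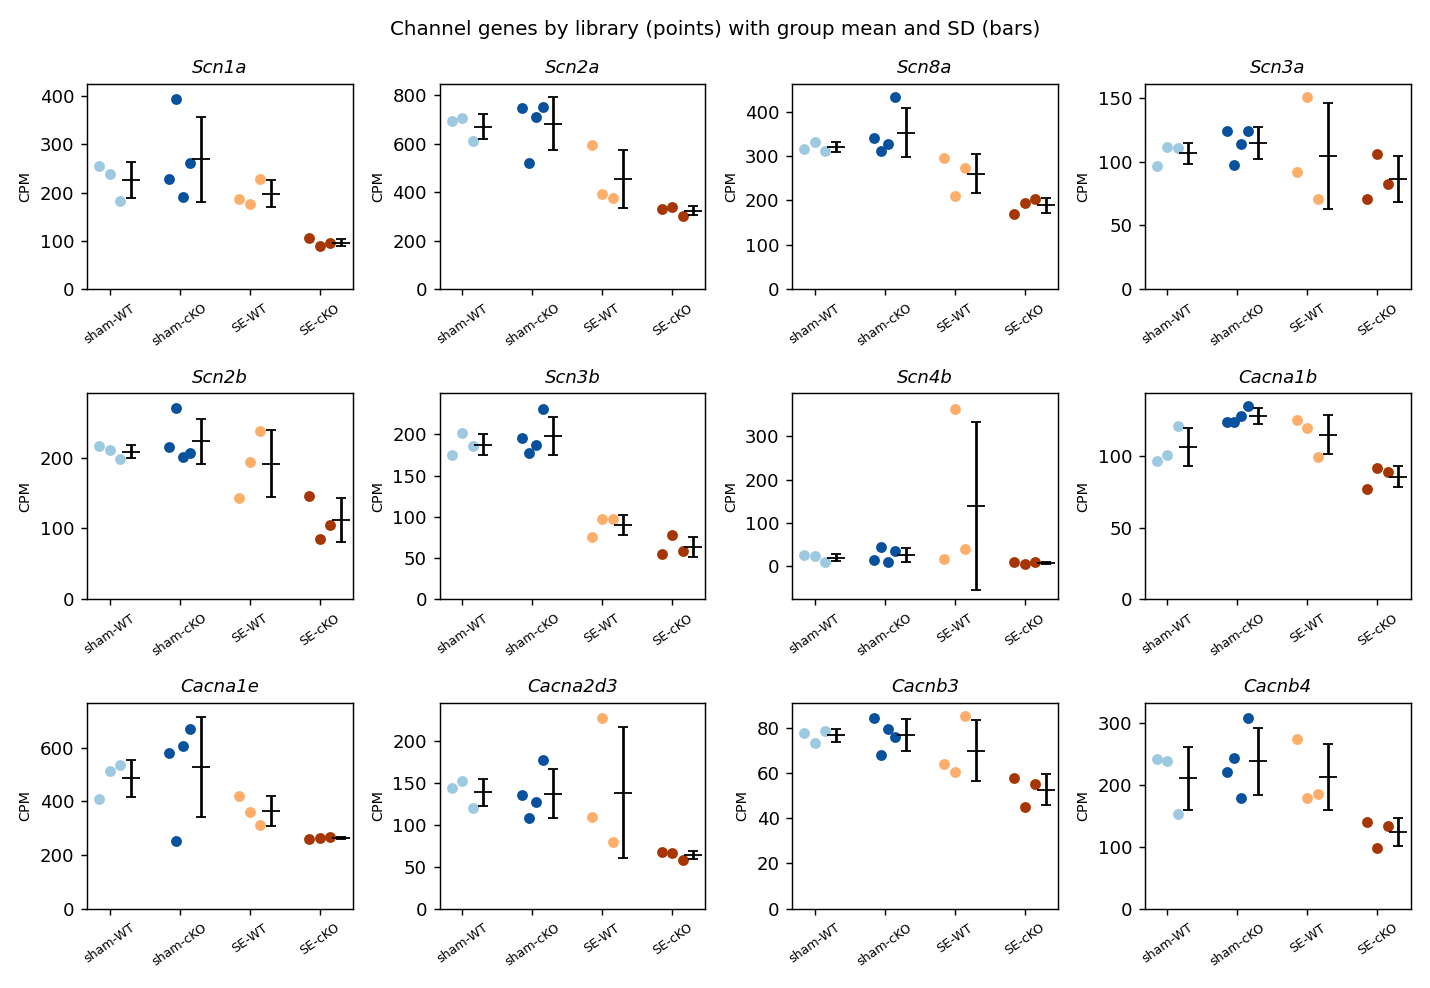
CPM (linear axes) of 12 channel genes in each library by group, with a bar at the group mean and its SD. The SE-cKO points of Scn1a, Scn2a, Scn8a and Scn3b lie below all sham points, and the single high Scn4b and Cacna2d3 points are SE-WT replicate 2, the library high in striatal genes.

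Of the calcium channel pores, the Cav2 genes of presynaptic terminals were led by Cacna1e, the R-type channel Cav2.3 (chromosome 1, 154390806 to 154884785). Cacna1e was at 579, 252, 607 and 668 CPM in sham-cKO and at 261, 262 and 267 CPM in SE-cKO. The groups overlapped through sham-cKO replicate 2, the library with thalamic RNA. The log2 fold change was -1.03 (standard error 0.29, adjusted p = 0.037), or -1.28 without that library (adjusted p = 4.26e-04). Over the 17 alternatives it ran from -1.28 to -0.79, and Cacna1e was called under 10 of them. Cacna1b (chromosome 2, 24603860 to 24763200) was at 124, 124, 129 and 136 CPM in sham-cKO and at 77.1, 91.4 and 88.7 CPM in SE-cKO. Its fall of 34.3% was smaller, with the narrowest error among the genes that fell (log2 fold change -0.61, standard error 0.10, adjusted p = 0.00366). Cacna1a, the P/Q-type pore Cav2.1, was at 73.9, 106, 80.8 and 104 CPM in sham-cKO and at 52.3, 63.3 and 85.5 CPM in SE-cKO, with overlap (log2 fold change -0.47, standard error 0.20, adjusted p = 0.126), and it was called lower under 2 alternatives, at -0.66 without SE-cKO replicate 3 and at -0.65 where the style of the library titles entered the fit.

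In the Cav1 group, Cacna1c, the L-type pore Cav1.2 (chromosome 6, 118587240 to 119197384), was at 130, 215, 131 and 118 CPM in sham-cKO and at 63.6, 90.9 and 88.7 CPM in SE-cKO. It fell by 46.5% (log2 fold change -0.90, standard error 0.23, adjusted p = 0.0249), and the log2 fold change was -0.68 (adjusted p = 0.0234) without sham-cKO replicate 2, its highest library. Cacna1d, the other brain L-type pore, had a log2 fold change of -0.40 (adjusted p = 0.16), and it passed without that library at -0.54 (adjusted p = 0.0459). It was also called lower where striatal and thalamic levels entered the fit of the 4 groups as covariates. Cacna1s was at 0 to 2.29 CPM throughout. Cacna1f had 0 counts in all sham libraries but sham-cKO replicate 3, which had 4, against 10, 0 and 8 counts in SE-WT and 39, 15 and 5 in SE-cKO.

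The 3 Cav3 pores differed in their values. Cacna1i, which encodes Cav3.3 (chromosome 15, 80287238 to 80398292), was at 68.5, 42.6, 60.3 and 76.2 CPM in sham-cKO and at 41.2, 25.7 and 36.6 CPM in SE-cKO, a fall of 45.3% with no overlap (log2 fold change -0.87, standard error 0.23, adjusted p = 0.0262). Cacna1h, which encodes Cav3.2 and had the highest mean TPM of the 3 in sham, was at 75.7, 49.4, 67.5 and 91.6 CPM in sham-cKO and at 70.6, 70.9 and 60.5 CPM in SE-cKO. Its SE-cKO values lay inside the sham-cKO range (log2 fold change -0.10, standard error 0.19, adjusted p = 0.761). In WT, Cacna1h was at 57.8, 71.7 and 92.5 CPM under saline. After SE it was at 36.8, 70.8 and 63.8 CPM (log2 fold change -0.40, adjusted p = 0.472). It was at -1.02 where the 3 libraries with striatal or thalamic RNA were left out, which leaves SE-WT with replicate 1 (36.8 CPM) alone. Cacna1g had a log2 fold change of -0.56 in cKO (standard error 0.54, not called) and of 0.27 without sham-cKO replicate 2 (adjusted p = 0.375).

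The alpha2delta subunits are the binding sites of gabapentin (alpha2delta-1 and alpha2delta-2) and partners of the pore on its outer face. Cacna2d3 (chromosome 14, 28904943 to 29722775) was at 136, 108, 127 and 177 CPM in sham-cKO and at 67.8, 65.9 and 58.2 CPM in SE-cKO. It fell by 54.1% (log2 fold change -1.12, standard error 0.17, adjusted p = 0.00223). Cacna2d1 (chromosome 5, 15934264 to 16374511) was at 304, 249, 301 and 359 CPM in sham-cKO and at 177, 167 and 238 CPM in SE-cKO, a fall of 37.2% (log2 fold change -0.67, standard error 0.17, adjusted p = 0.0219). Both had no overlap between the groups. Cacna2d2 had the same log2 fold change of -0.67 with a wider error (standard error 0.26, adjusted p = 0.108). Cacna2d4 was at 0.753, 9.96, 1.65 and 1.11 CPM in sham-cKO and at 4.19, 2.71 and 4.82 CPM in SE-cKO (log2 fold change 0.19, adjusted p = 0.907). Without sham-cKO replicate 2, which holds the value of 9.96 CPM, Cacna2d4 was called higher at 1.69 (adjusted p = 0.0175).

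The beta subunits of calcium channels bind the pore on its inner face. Cacnb4, the highest of them in TPM and a gene whose loss causes seizures in lethargic mice (chromosome 2, 52428320 to 52676609), was at 221, 244, 179 and 309 CPM in sham-cKO and at 140, 97.9 and 134 CPM in SE-cKO. It fell by 48.9% (log2 fold change -0.97, standard error 0.20, adjusted p = 0.0104). Cacnb2 (chromosome 2, 14603861 to 14988811) was at 59.3, 84.3, 69.9 and 55.1 CPM in sham-cKO and at 31.1, 43.6 and 46.2 CPM in SE-cKO (log2 fold change -0.76, standard error 0.19, adjusted p = 0.0216). Cacnb3 (chromosome 15, 98628436 to 98644536) was at 84.4, 67.8, 79.6 and 76.2 CPM in sham-cKO and at 57.8, 44.9 and 55.3 CPM in SE-cKO (log2 fold change -0.57, standard error 0.13, adjusted p = 0.0133). The SE-cKO values of all 3 genes lay below all sham-cKO values. Cacnb1, the remaining member, had a log2 fold change of -0.37 (adjusted p = 0.352). Exons of 9 channel genes, Scn9a, Cacnb2 and Cacnb4 among them, share bases with a gene on the opposite strand, and the strand setting of the counting is not stated.

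The share of each alpha subunit within a library was set by TPM over Scn1a, Scn2a, Scn3a and Scn8a together and is given as a description. Scn2a held 53.4% to 53.6% in the 3 sham-WT libraries, 41.1% to 55.9% in sham-cKO, 41.9% to 54.1% in SE-WT and 47.9% to 52.2% in SE-cKO, ranges that overlapped. Scn3a held 6.44% to 8.19% in the 7 sham libraries and 9.22% to 13.5% in the 3 SE-cKO libraries, which did not overlap. In SE-WT its share was 6.88%, 14.6% and 6.80%, with the high value in SE-WT replicate 2. Scn1a held 16.1% to 33.2% in sham-cKO and 13.9% to 17.5% in SE-cKO, and Scn8a 19.3% to 22.9% and 21.0% to 25.2%, with overlap in both. Of the summed TPM of the sodium channel beta subunits, Scn3b held 17.8% to 23.5% in sham-cKO and 9.07% to 20.4% in SE-cKO.

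**Figure D4:**
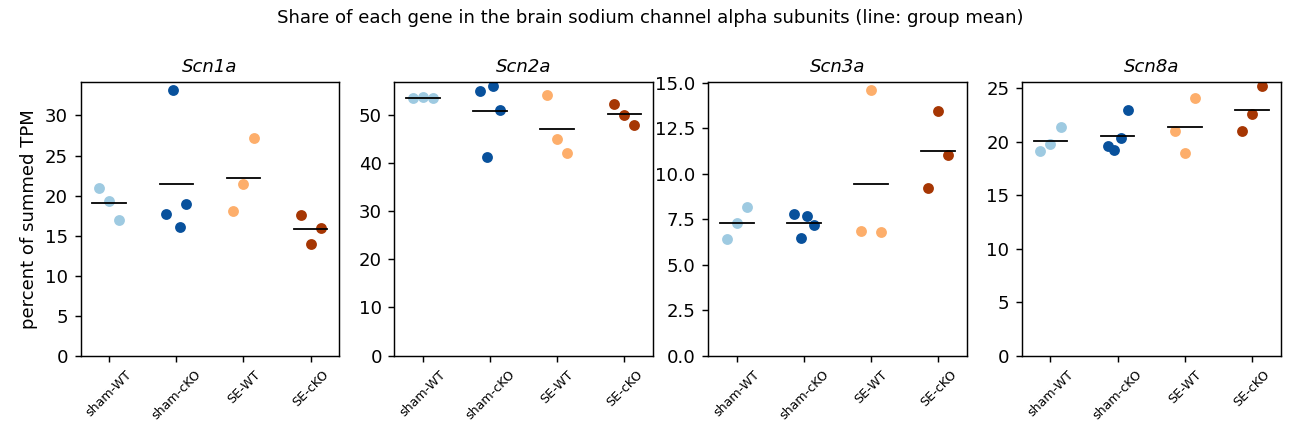
Percent of the summed TPM of Scn1a, Scn2a, Scn3a and Scn8a held by each gene in each library, by group, with a line at the group mean and axes from 0. The 3 SE-cKO points of Scn3a lie above the 7 sham points, and the single high SE-WT point of Scn3a is replicate 2.

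Whether the 2 genotypes differed after SE was tested directly between SE-cKO and SE-WT, and as an interaction of genotype and SE over all 13 libraries. These tests share libraries with the comparisons above and are no independent evidence. Of 31 channel genes tested between SE-cKO and SE-WT, edgeR called none (0.0% of 21126 genes were called), and 16 of the 31 and 2046 of all genes had an unadjusted p under 0.05. The median log2 fold change was -0.50, beside 0.001 over all genes, with 27 values below 0. Ranges were lower in SE-cKO without overlap for 12 of the 31 genes (38.7%), against 5.68% of all genes. The 31 include Scn4a, Scn11a and Cacna1f, which had few counts and did not pass the count filter between SE-WT and sham-WT. Among the 23 genes at a mean of 1 TPM or more over all libraries, the median was -0.50, with 22 values below 0 and 11 lower ranges without overlap. DESeq2 called 4 of 28 genes lower, where it called 1.28% of all genes lower, and limma voom called none.

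Those 4 were Scn1a, Scn4b, Cacna1i and Cacnb4. Scn1a was at 186, 176 and 229 CPM in SE-WT, above its 3 SE-cKO values of 88.7 to 105 CPM (log2 fold change -1.07, standard error 0.17, edgeR adjusted p = 0.236, DESeq2 adjusted p = 4.80e-06). Without SE-WT replicate 2 or replicate 3 its log2 fold change was -1.14 or -0.96. Cacna1i was at 71.2, 88.1 and 56.9 CPM in SE-WT, above 25.7 to 41.2 CPM in SE-cKO (log2 fold change -1.10, edgeR adjusted p = 0.304, DESeq2 adjusted p = 0.00564). Cacnb4 was at 274, 179.8 and 185 CPM in SE-WT, above 97.9 to 140 CPM in SE-cKO (log2 fold change -0.82, edgeR adjusted p = 0.347, DESeq2 adjusted p = 0.049). Without SE-WT replicate 2 or replicate 3, Cacna1i was at -0.93 or -1.26 and Cacnb4 at -0.92 either way. The Scn4b value of -4.24 was -1.89 without SE-WT replicate 2. Scn2a, at 594, 392 and 376 CPM in SE-WT, had a log2 fold change of -0.53 (adjusted p = 0.473). It was called at -0.82 (adjusted p = 0.0422) where striatal and thalamic levels entered the fit of the 4 groups as covariates. Leaving out the 3 libraries high in such genes kept only SE-WT replicate 1, at 594 CPM, and gave -0.91.

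The interaction, the change with SE in cKO minus that in WT, was called by edgeR for none of 31 channel genes, where 0.0752% of all 22596 genes were called lower and 0.0841% higher, and 13 of the 31 and 2834 of all genes had an unadjusted p under 0.05. Its median was -0.67, beside 0.03 over all genes, and 29 of 31 values were below 0. The 31 again include Scn4a, Scn11a and Cacna1f. Among the 23 genes at a mean of 1 TPM or more over all libraries, the median was -0.61 and 22 values were below 0. DESeq2 called 5 of 28 genes lower (2.05% of all genes): Scn1a, Scn4b, Cacna1b, Cacna1i and Cacna2d2. For Scn1a the interaction was -1.28 (standard error 0.31, edgeR adjusted p = 0.144, DESeq2 adjusted p = 0.00791), and for Cacna1b it was -0.69 (standard error 0.17, edgeR adjusted p = 0.136, DESeq2 adjusted p = 0.00896). For Scn3b, which fell in both genotypes, it was -0.58 (adjusted p = 0.27). With the 3 libraries of mixed region left out, which leaves SE-WT with replicate 1 alone, edgeR gave -0.98 for Scn1a and -0.86 for Cacna1b. Cacna1i was at -1.06 on all libraries (DESeq2 adjusted p = 0.044) and at -1.21 without the 3. Scn4b moved from -4.58 (DESeq2 adjusted p = 0.019) to -1.05 and Cacna2d2 from -1.91 (DESeq2 adjusted p = 0.018) to -0.64, and without SE-WT replicate 2 alone they were at -2.27 and -1.40. DESeq2 was not run without these libraries. On all libraries, the difference between the genotypes in the change with SE was thus called for 5 channel genes by DESeq2. There edgeR and limma voom called none. Without SE-WT replicate 1, edgeR called Cacna2d2 lower.

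Partners and regulators of the channels were read from a list of 64 genes, 59 of which were tested. In SE-cKO against sham-cKO, 22 fell and 6 rose, where 8.92% of all genes fell and 13.8% rose. The median log2 fold change was -0.36, beside -0.001 over all genes. In SE-WT against sham-WT 2 fell and 1 rose, where 0.832% of all genes fell and 4.57% rose. The median there was -0.02, beside 0.02 over all genes. Those named are among the 6 with the smallest p in their comparison. Fgf14, an intracellular partner of the sodium channel tail, averaged 98.95 ± 11.96 CPM in the 4 sham-cKO libraries and 48.9 ± 1.30 CPM in the 3 SE-cKO libraries, each with its SD (log2 fold change -1.04, adjusted p = 4.67e-04), with 78.7 ± 7.11 CPM in sham-WT and 95.8 ± 25.4 CPM in SE-WT (log2 fold change 0.26, adjusted p = 0.532). Cntn1, an adhesion molecule that binds sodium channel beta subunits, fell at -0.87 (adjusted p = 9.36e-04), and its value in WT was -0.49 (adjusted p = 0.0597).

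Of the 6 partners with the smallest p in cKO, 3 rose. Rest, the repressor of many neuronal genes, averaged 10.8 ± 1.19 CPM (SD) in sham-cKO against 26.6 ± 3.07 CPM after SE (log2 fold change 1.27, adjusted p = 5.22e-04), and went from 10.5 ± 2.29 to 17.2 ± 3.92 CPM in WT (log2 fold change 0.68, adjusted p = 0.151). Gem, a small GTPase that holds calcium channel beta subunits and lowers calcium current, rose in both genotypes, at 2.23 in cKO (adjusted p = 5.82e-04) and 1.73 in WT (adjusted p = 0.0214). Tubb2b, a tubulin of young neurons, rose at 0.83 in cKO (adjusted p = 0.00119). In WT the calmodulin genes Calm3 and Calm2, whose product is the calcium sensor of both channel classes, fell at -0.93 and -0.72 (adjusted p = 0.0218 and 0.034), and they also fell in cKO, at -0.84 and -0.63 (adjusted p = 0.00504 and 0.00825).

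Levels of cell type genes moved beside the channel genes. For the counts below, 8.92% of all genes fell and 13.8% rose in cKO, and 0.832% fell and 4.57% rose in WT. Of 20 general neuronal genes, 10 fell in SE-cKO and 1 in SE-WT, none rose and none was at 0, and their summed CPM was 8168 to 8962 in sham-cKO, 5110 to 6568 in SE-cKO, 8211 to 8709 in sham-WT and 5927 to 7913 in SE-WT. For that list the median change (log2) was -0.56 in cKO and -0.13 in WT, beside -0.67 and -0.01 for the channel genes. Of 16 interneuron genes, 6 fell and 1 rose in cKO and 1 fell in WT, and none was at 0. Their summed CPM was 663 to 884 in SE-cKO against 1153 to 1471 in sham-cKO. It was 1017 to 1774 in SE-WT against 1255 to 1398 in sham-WT. The 1774 CPM belonged to SE-WT replicate 2, the library high in striatal genes, and SE-WT replicates 1 and 3 were at 1143 and 1017 CPM. Granule cell genes summed to 435 to 501 CPM in SE-cKO and 302 to 435 CPM in SE-WT, with 5 of 10 fallen in cKO and 4 of 10 in WT and medians of -0.57 and -0.92 (log2). CA pyramidal genes summed to 602 to 774 CPM in SE-cKO and 512 to 898 CPM in SE-WT, with 5 of 12 fallen in cKO and 2 of 12 in WT and medians of -0.71 and -1.04. The interneuron list was at -0.89 in cKO and -0.39 in WT. Between SE-cKO and SE-WT directly, the medians were 0.71 for granule cell, -0.09 for CA pyramidal and -0.68 for interneuron genes. By library, CA pyramidal medians against the sham mean overlapped, at -1.23 to -0.30 in SE-WT and -0.89 to -0.50 in SE-cKO. All 12 microglial genes rose in both, and 9 of 10 oligodendrocyte precursor genes rose in cKO and 2 in WT. The part of these shifts in the channel values was not tested.

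**Figure D5:**
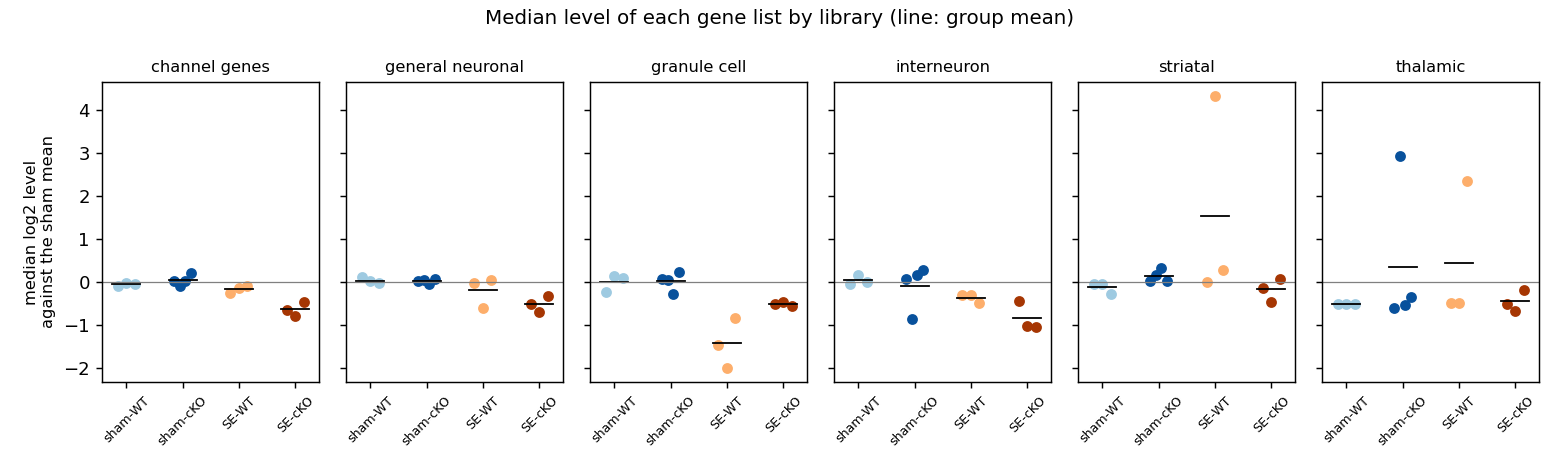
Median log2 level against the sham mean (y axis) of 23 channel genes at 1 TPM or more and of 5 cell type or region lists in each library, by group, with a line at the group mean. The channel genes are at -0.67, -0.80 and -0.47 in SE-cKO and -0.26, -0.15 and -0.09 in SE-WT, the high striatal point is SE-WT replicate 2, and the high thalamic points are sham-cKO replicate 2 and SE-WT replicate 3.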

How the data were processed

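RNA from whole hippocampi of 13 mice had been made into TruSeq stranded total RNA libraries. According to the submitters' processing notes, the authors used bcl2fastq 2.20.0, Trimmomatic, HISAT2 2.1.0 on mm10 and StringTie 2.1.3b. The strand setting, read filters and the step to whole counts are not given in the sources used here. For 45777 genes the authors deposited whole read counts beside FPKM and TPM values. The deposited counts were tested with edgeR 4.0.16 in R 4.3.3 (filterByExpr with minimum count 10 and total 15, TMM, robust quasi-likelihood) on the libraries of each comparison's 2 groups, or on all 13 for the interaction, with Benjamini-Hochberg adjustment over all genes at 0.05. CPM used TMM, and log2 CPM a prior count of 2. The deposited TPM served for levels and shares between genes, and the deposited FPKM as an alternative. The alternatives were DESeq2 1.42.0, limma 3.58.1 (voom), RLE size factors, no filter, a replicate block, a fit of all 4 groups, Xist, title style or striatal and thalamic levels as covariates, and libraries left out. The fits were tested on simulated data. Positions and promoters came from RefSeq (GRCm38, matched by gene ID for all 32 genes), and strand overlaps from GENCODE.

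Members and lists were chosen with earlier results of these data known. By rule, genes called in any comparison and the highest gene of each subfamily in sham TPM are given by library, and of the partners up to 6 called genes with the smallest p in each comparison. Some other members are also given by library, a choice made after their values were seen. A few genes that are part of the counts are not reported by name here. P-values measure the spread between mice.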

Additional observations from a re-analysis of the deposited data

Results flagged for a closer look

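Within the 4 sham-cKO libraries, a single library stood apart from the other 3 for 8 of 32 channel genes, 7 of which are given here. By the same rule 18.1% of all 28057 genes that vary in these libraries were flagged, where chance flags about 1 in 20. Among genes passing the count filter of the sham comparison the shares were 4 of 28 channel genes and 7.51% of all genes. Sham-cKO replicate 2, the library high in thalamic genes, was highest for Cacna1g at 176 CPM, Cacna1c at 215 CPM, Cacna2d4 at 9.96 CPM and Scn4a at 0.140 CPM (9 counts). Sham-cKO replicate 3 was highest for Scn11a at 0.191 CPM (14 counts), Cacna1f at 0.0546 CPM (4 counts) and Scn10a at 0.0273 CPM (2 counts, under the limit of 3).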

How the results depend on the processing

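Every setting here was run for the channel genes. In SE-cKO against sham-cKO, the count of called genes ran from 10 to 17 without single libraries and from 11 (replicate block) to 18 otherwise, all lower except Cacna2d4, Scn4a or both, which were called higher under 4 of the settings. Without single libraries the median ran from -0.83 to -0.63. In SE-WT against sham-WT, 2 genes were called with DESeq2 and with Xist as a covariate (1 higher and 1 lower each). The median was -0.16 with sham-cKO replicate 2 and SE-WT replicates 2 and 3 left out for their striatal or thalamic RNA. That fit leaves SE-WT with replicate 1 alone. Single libraries left out gave 0 calls (sham-WT replicate 2) to 3 calls (SE-WT replicate 1) and medians of -0.05 to 0.10. Between SE-cKO and SE-WT, 4 were called by DESeq2, and 1 (Scn2a) with striatal and thalamic levels as covariates. Without those 3 libraries, again with SE-WT replicate 1 alone, the median was -0.35. The interaction had 5 calls with DESeq2, and 0 to 1 calls (Cacna2d2 without SE-WT replicate 1) and medians of -0.85 to -0.61 without single libraries. Sham-cKO against sham-WT had 0 calls throughout. By FPKM, 23 genes were again at a sham mean of 1 or more. Of 130 values not called, 48 changed sign under some alternative. Replicate numbers are shared between groups, yet same-numbered libraries correlated at -0.08 to 0.04 between SE-cKO and sham-cKO and at 0.02 to 0.19 between SE-WT and sham-WT, so they do not pair the mice. A replicate block left 11 calls in SE-cKO, 1 in SE-WT and 0 in the other 3 tests. The causes of these changes were not tested. Depth limits the values of Scn4a, Scn10a, Scn11a and Cacna1f, which lie near the limit of detection.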
